A study of Danio rerio with 10 samples.

Results

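Control zebrafish were compared at 2 ages, larvae at 96 hours post fertilization (hpf) against blastula embryos at 3.3 hpf. The members were picked by label, as the control libraries of each age, with earlier results of these data known. They make up 5 of the 10 RNA sequencing libraries of the series. The larval controls were 2 libraries and the blastula controls were 3 libraries, all made from pooled whole animals of the AB wild-type line. Controls of both ages carry the label 0.1 mL/L, with no agent named, and the libraries left out of the comparison came from animals given the polycyclic aromatic hydrocarbon benzo[a]pyrene (BaP) at 50 µg/L. No label ties a replicate to a clutch of its own, so the spread between replicates may be technical. Of the Ensembl genes in the deposited tables, 12800 were listed at both ages, 6110 were listed at 96 hpf only and 1436 were listed at 3.3 hpf only.

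A zebrafish egg is loaded by the mother with RNA and protein that carry the embryo through its rapid cleavage divisions. Around the mid-blastula stage the embryo's own genome is switched on, with the pluripotency factors Nanog, Pou5f1 and SoxB1 among its activators, while much of the maternal RNA is destroyed. This handover is called the maternal-to-zygotic transition. A larva at 96 hpf has hatched and swims, with contractile muscle, a beating heart, a functioning retina, liver and exocrine pancreas, and many of its cells have left the cell cycle.

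The values are CPM, the reads of each gene as a rate per 1000000 in its library, without correction for gene length. Differences between ages are therefore taken for the same gene. Where genes are ordered by CPM or given as shares of reads, the order also depends on gene length. The authors scaled the table of each age separately. For shared genes the CPM of each library were therefore rescaled to the same total over the 12800 shared genes (rescaled CPM), and differences are on the log2(rescaled CPM + 0.5) scale as larvae minus blastula embryos, which understates the change of low genes. No significance test was run across tables that were scaled separately, and age and batch cannot be told apart. A shared gene was called higher in larvae where every larval control was at least 2-fold above every blastula control, and lower where every larval control was at least 2-fold below every blastula control. Genes listed at a single age are given as deposited CPM with no fold difference. The share of reads of a list counts only its members listed at that age, and reads of members not listed there are left out. Listing required more than 1 CPM in at least 3 libraries at 3.3 hpf and in at least 2 libraries at 96 hpf, so shared genes are a selection of both ages. The libraries counted could be BaP ones, so a gene can be listed at an age where its controls fall short. The gene zp2.2 was listed at 96 hpf though neither larval control reached 1 CPM. The gene acta1b was listed at 3.3 hpf with blastula controls at 0.534, 0.437 and 1.05 rescaled CPM. In whole-animal RNA, fewer cells of a type and less RNA per cell cannot be told apart.

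The reads assigned to listed genes came to 13.2 and 16.3 M in the larval controls, against 17.5, 18.3 and 17.8 M in the blastula controls, so 1 CPM rested on at least 13.2 reads. The defining markers went with the labels. Of 30 markers of 13 larval tissues, 28 were in the larval table only. The other 2, the neuronal snap25a and the endothelial cdh5, were no higher than 4.14 rescaled CPM in any blastula control. Of 6 egg and blastula markers, zp3b, buc, zar1, h1m and nanog were in the blastula table only, and the egg coat gene zp2.2 was at or near 0 in both larval controls. Among the blastula controls, replicate 1 stood apart in its early zygotic RNA. It was the highest of the 3 for 19 of the 22 early zygotic and gastrula genes in the blastula table, and replicate 2 was the lowest for 17 of them. Their summed share of the assigned reads was 0.0424% in replicate 1, 0.0145% in replicate 2 and 0.0219% in replicate 3, and results that rest on these genes are given with and without replicate 1.

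Larval RNA was concentrated in far fewer genes than blastula RNA. The 10 genes with the most reads took between 10.5% and 10.8% of the reads of a larval control, against between 1.74% and 1.90% in a blastula control. The most abundant 100 genes took between 30.5% and 31.8% in larvae and between 10.08% and 10.5% in blastula embryos. A share of 50% of the reads was reached with 464 genes or fewer in each larval control, and needed at least 1365 genes in each blastula control. Genes listed at 96 hpf only held between 35.7% and 36.2% of larval reads. Genes listed at 3.3 hpf only held between 3.39% and 3.60% of blastula reads.

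**Figure D1:**
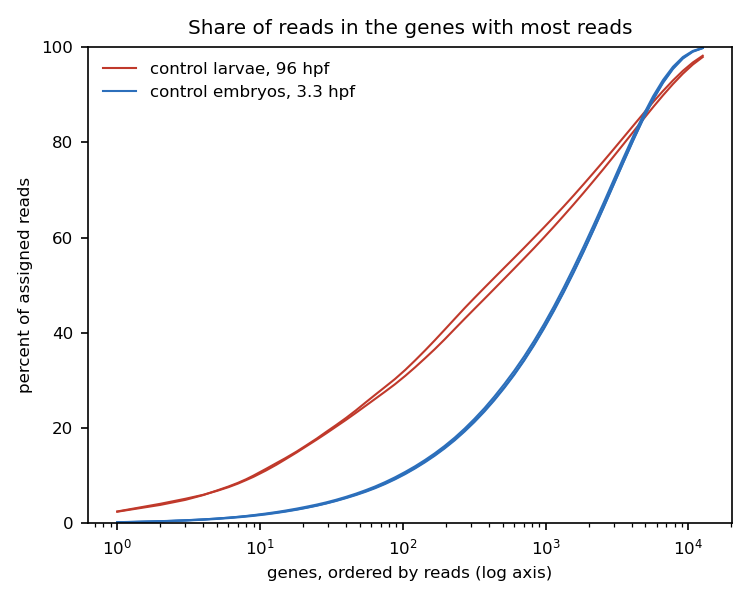
The plot of read share by gene rank gives the percent of assigned reads (vertical axis) held by the genes with the most reads (horizontal axis, log scale), with 1 line per library. The 2 larval lines lie above the 3 blastula lines at low gene numbers, with 10.5% to 10.8% against 1.74% to 1.90% of reads in the first 10 genes.

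Of the 12800 shared genes, 2860 (22.3%) were called higher in larvae and 4092 (32%) were called lower, so 54.3% carried a call. These shares are the background against which every list below is read. The split depended on scaling, since 41.1% of calls were higher ones with the shared-gene total, 51.7% with TMM factors, 53.3% with median-ratio factors and 28.2% with CPM as deposited. The median of all shared genes was −0.41 on the log2 scale with the shared-gene total, and it moved by 0.38 under TMM, 0.43 under median ratios, 0.17 under ranks and −0.56 with deposited values. Under all 5 scalings together, 2120 genes were called higher and 2978 were called lower, and 0 genes had opposite calls. Apart from ranks, the scalings differ by a single factor per library. These factors were too small to reverse a call, so the absence of opposite calls among them was fixed in advance. The differences were large beside the spread between replicates: the median absolute difference between ages was 1.48 on the log2 scale, against a median SD of 0.12 between larval controls and 0.18 between blastula controls. Across the shared genes, Spearman's rho was 0.988 between the larval controls and 0.972 to 0.984 among blastula controls, but 0.422 to 0.445 between a larval and a blastula control. Genes are not replicates, so these correlations describe the libraries. Genes called higher held 55.9% of larval reads and 6.07% of blastula reads over the shared genes. Genes called lower held 12.4% of larval reads and 59.06% of blastula reads.

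**Figure D2:**
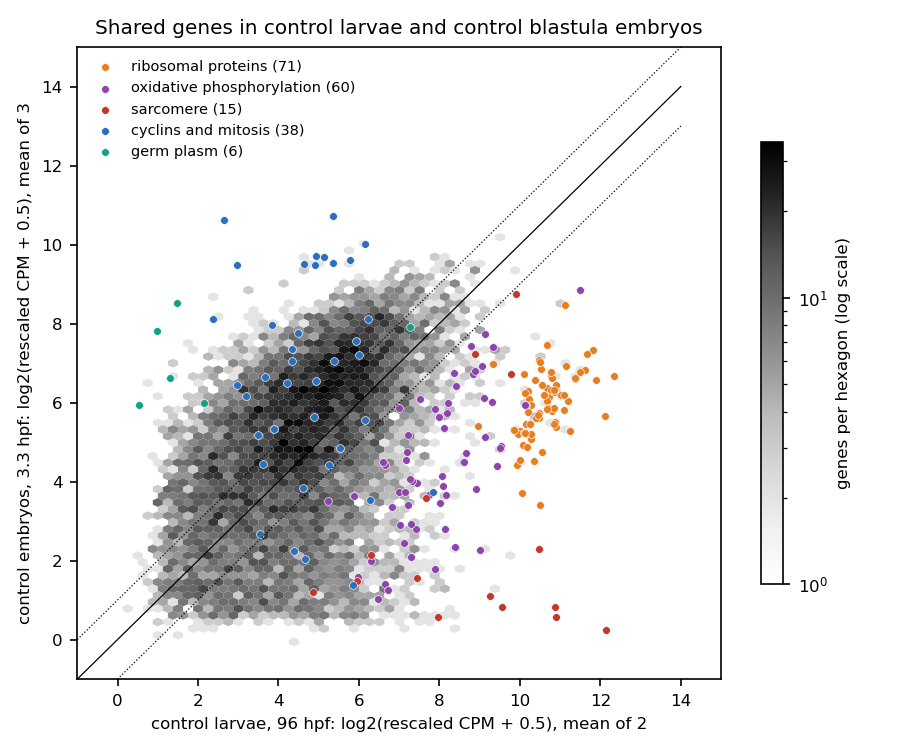
The scatter of the 12800 shared genes plots log2(rescaled CPM + 0.5) in control larvae (horizontal, mean of 2) against control blastula embryos (vertical, mean of 3), with grey hexagons for gene density, a solid line of equality and dotted lines at 2-fold. All 71 ribosomal protein genes lie on the larval side, and 5 of the 6 shared germ plasm genes lie on the blastula side beyond the dotted line.

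The widest differences among shared genes on the larval side were in muscle and nervous tissue genes. The skeletal muscle actin acta1b stood at 4294 and 4756 rescaled CPM in larvae, against 0.534, 0.437 and 1.05 in blastula embryos, a log2 difference of 11.95. The giant sarcomere spring protein titin followed in both of its genes, with ttnb at 1989 and 1819 rescaled CPM in larvae, against 1.01, 0.679 and 1.28 in blastula embryos. The second titin gene, ttna, averaged 1867 ± 139 rescaled CPM in larvae (SD, n = 2) and 1.28 ± 0.18 in blastula embryos (SD, n = 3). The lowest ratio of larval to blastula means in these genes was 1460, in ttna. The glial glutamate transporter slc1a2b (1206 ± 67.5 against 1.19 ± 0.30 rescaled CPM) and the radial glia fatty acid-binding protein gene fabp7a (670 ± 31.2 against 0.905 ± 0.322) belonged to the same 12 genes. So did the tubulins tuba1l2 and tuba1l, the glycolytic enzyme gene gapdhs, the matrix genes matn4 and postnb, the lens crystallin cryba2a and the fast muscle troponin tnnt3a, whose log2 differences lay between 8.76 and 9.50. In matn4 the larval controls stood at 864 and 865 rescaled CPM, against 0.0593, 0.679 and 5.71 in the blastula controls, and the blastula libraries differed widely.

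On the blastula side the 12 widest differences were in genes of varied function. The phosphatase gene acp5a stood at 1.19 and 2.77 rescaled CPM in larvae, against 1005, 942 and 977 in blastula embryos, a log2 difference of −8.70. The pluripotency factor pou5f1 was at 1.91 and 2.77 rescaled CPM in larvae, against 1005, 1131 and 1015 in blastula embryos. Neither gene had a larval library within 100-fold of a blastula library. The RNA-binding protein gene caprin2 stood at 1.31 ± 0.17 rescaled CPM in larvae (SD, n = 2) and 547 ± 34.9 in blastula embryos (SD, n = 3). The autophagy gene MAP1LC3C, the DNA helicase gene pif1, the PAS domain kinase gene pask and the makorin gene mkrn4 had log2 differences of −7.73, −6.75, −6.46 and −6.40. The cyclins ccnb2 and ccne1, the germ cell genes vasa and tdrd1 and the Nodal effector foxh1 complete these 12 genes. At the middle of the distribution lay sun1, cbx5, erh, snrk, pdcd8 and cnot1, each at −0.40 or −0.41. The deadenylase scaffold gene cnot1 stood at 350 and 357 rescaled CPM in larvae, against 503, 461 and 450 in blastula embryos.

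Genes listed at 96 hpf only were led by the contractile apparatus of fast muscle. Their deposited levels in larvae were led by actc1b, an alpha actin, and by myhz1.1, a fast myosin heavy chain. The calcium-buffering parvalbumins pvalb2 and pvalb1 averaged 9024 ± 961 and 7497 ± 968 deposited CPM (SD, n = 2). The sarcoplasmic calcium pump atp2a1 averaged 7972 ± 451, the tropomyosin tpma 7713 ± 77.7 and the myosin light chain mylpfa 7563 ± 148. The light chain mylz3, the heavy chain myhz1.2 and the muscle creatine kinase ckmb lay between 6082 and 7032 deposited CPM. The list of 12 held 2 genes from outside muscle, the epidermal keratin krt4 at 10051 and 7524 deposited CPM and the fibrillar collagen col1a1a at 5080 and 5780. Of the 6110 genes, 383 averaged over 100 CPM and 2423 over 10 CPM, with a median of 6.60 CPM.

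Genes listed at 3.3 hpf only were led by regulators of the egg and the early embryo. The pluripotency factor nanog stood at 1460, 1481 and 1359 deposited CPM in blastula controls. The oocyte linker histone h1m averaged 1295 ± 38.7, the meiotic and early embryonic cyclin ccna1 1286 ± 55.8 and buc, the organizer of the Balbiani body and germ plasm, 821 ± 21.3 (SD, n = 3). These genes varied little between the libraries. The claudins cldnd and cldng, of the tight junction family, varied more, at 676, 1145 and 752 and at 510, 754 and 598 deposited CPM. The zinc finger gene cth1, the cyclin O gene CCNO, the RNA granule gene lsm14b, the Cdk1-inhibiting kinase wee2, the deadenylation cofactor btg4 and tatdn2 complete the 12. Of the 1436 genes, 60 averaged over 100 CPM and 421 over 10 CPM, with a median of 4.42 CPM.

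Oocyte and germ plasm genes were nearly all on the blastula side. Of 34 egg coat and oocyte genes in a table, 23 were in the blastula table only, 7 were lower in larvae, 2 had neither call, 1 was in the larval table only and 1 was higher. The oocyte growth factors bmp15 and gdf9, which act in the ovary, were still present in blastula embryos at 86.6 ± 2.43 and 52.0 ± 11.7 deposited CPM (SD, n = 3). The translational regulator zorba stood at 1.79 and 1.15 rescaled CPM in larvae, against 102, 203 and 162 in blastula embryos. The member called higher was ybx1, an RNA-binding protein gene that is also used outside the oocyte, at 3425 and 3315 rescaled CPM in larvae, against 468, 522 and 504 in blastula embryos.

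Of 17 germ plasm genes, 11 were in the blastula table only, 5 were lower in larvae and 1, the broadly used RNA-binding gene celf1, had neither call. The germ cell helicase vasa stood at 2.74 and 1.81 rescaled CPM in larvae, against 368, 389 and 343 in blastula embryos. The PIWI gene piwil1, which silences transposons through piRNAs, stood at 0.953 and 0.955 rescaled CPM in larvae, against 53.2, 72.7 and 57.0 in blastula embryos. The remaining lower members were tdrd1, tdrd9 and hook2, with log2 differences of −6.85, −5.36 and −3.86. The translational repressor nanos3 and the microRNA-blocking protein gene dnd, which protect primordial germ cells, were in the blastula table only, at 64.7, 125 and 57.0 and at 67.0, 148 and 83.7 deposited CPM. In both genes replicate 2 was the highest, as it was for 12 of the 17 germ plasm genes.

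Activators of the zygotic genome were found on both sides, the shared ones at shares near those of all shared genes. Of 22 in a table, 3 were in the blastula table only, among them nanog, and 2 were in the larval table only. Of 17 shared members of that list, 7 were lower in larvae, 4 were higher and 6 had neither call, with a median of −0.57, close to that of all shared genes. In the RefSeq tables this list's median was 1.47, over only those members found there under the same symbol, so the genes behind the 2 medians can differ. The lower members included pou5f1, foxh1, sox19b, the T-box gene eomesa and the acetyltransferases ep300a and ep300b. The SoxB1 factor sox19b stood at 26.9 and 24.5 rescaled CPM in larvae, against 856, 842 and 789 in blastula embryos. The higher members were the transcription factors sox11a, yy1a, myca and mych. The neural progenitor factor sox11a stood at 202 and 173 rescaled CPM in larvae, against 15.6, 2.85 and 2.44 in blastula embryos, where replicate 1 was the highest. Without that replicate 7 members were higher and 7 were lower, and the median became 0.21. The Krüppel-like gene klf4 differed widely between blastula controls. The level of klf4 was 12.03 and 9.74 rescaled CPM in larvae, against 133, 2.32 and 33.8 in blastula embryos, so the groups overlapped.

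Early zygotic and gastrula genes were scattered over both ages. Of 36 in a table, 14 were in the larval table only, 9 were in the blastula table only, 6 shared genes were higher in larvae, 1 was lower and 6 had neither call. Those in the blastula table only were specifiers of the germ layers and the organizer, among them the Nodal ligand ndr1, the Nodal antagonists lft1 and lft2, and the organizer gene dharma. Their levels differed between libraries, with lft2 at 11.1, 0 and 2.53 deposited CPM and ndr1 at 10.7, 1.09 and 5.35. Genes reused later in development were in the larval table only, among them the notochord gene ntla, the BMP antagonist gene chd and the ligand gene bmp4 at 5.97 ± 2.09, 5.17 ± 0.86 and 14.03 ± 0.90 deposited CPM (SD, n = 2). The simple epithelial keratins krt8 and krt18 had the largest shared differences of the list, 8.50 and 8.44. The level of krt8 was 1516 and 1369 rescaled CPM in larvae, against 6.21, 2.09 and 3.15 in blastula embryos. The single lower member was wnt8a, a ventralizing Wnt ligand, at 1.67 and 1.53 rescaled CPM in larvae, against 37.2, 53.1 and 42.9 in blastula embryos. Without blastula replicate 1 the list held 8 higher and 2 lower shared genes, and its median was 3.55 in place of 3.32. The median moved further without the other blastula controls, to 2.36 without replicate 2 and 2.95 without replicate 3.

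The cell cycle machinery of cleavage was mostly on the blastula side. Of 38 shared cyclins, cyclin-dependent kinases and mitotic regulators, 26 were lower in larvae, 5 were higher and 7 had neither call, with a median of −2.08. Mitotic cyclin gene ccnb2 stood at 5.003 and 6.49 rescaled CPM in larvae, against 1506, 1614 and 1565 in blastula embryos. The spindle assembly factor gene tpx2 was at 74.8 and 65.4 rescaled CPM in larvae, against 934, 1082 and 1083 in blastula embryos. Both groups were tight and far apart. The anaphase activator cdc20, the polo kinase plk1, the phosphatase cdc25, the Aurora kinase aurka and the cytokinesis genes anln and kif23 were lower by between −3.83 and −4.79 on the log2 scale. The catalytic kinase that these cyclins switch on, cdk1, did not follow them. It was at 39.8 and 36.0 rescaled CPM in larvae, against 24.5, 22.3 and 15.5 in blastula embryos, with neither call. The higher members were the Cdk inhibitors cdkn1a and cdkn1c, the G1 cyclin ccnd1, the cyclin ccne2 and the checkpoint gene bub3. The growth-dependent cyclin ccnd1 stood at 213 and 244 rescaled CPM in larvae, against 17.6, 4.13 and 16.9 in blastula embryos.

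DNA replication genes were more often lower than higher in larvae. Of 41 shared members, 25 were lower in larvae (61.0%, against 32% of all shared genes), 2 were higher and 14 had neither call, with a median of −1.67. Lower members numbered 21 under TMM and median ratios, 19 under ranks and 32 with deposited CPM. Over all shared genes the lower share ran from 24.0% to 42.6% across the scalings. The licensing inhibitor geminin, gmnn, stood at 12.3 and 12.7 rescaled CPM in larvae, against 871, 809 and 838 in blastula embryos. The licensing factor that geminin binds, cdt1, stood at 10.4 and 13.6 rescaled CPM in larvae, against 604, 637 and 630 in blastula embryos. The origin recognition genes orc6, orc1 and orc3 were lower by −5.02, −4.20 and −2.90. The sliding clamp gene pcna had neither call, at 370 and 431 rescaled CPM in larvae, against 430, 397 and 380 in blastula embryos, and the groups overlapped. The higher members were the replicative helicase subunits mcm6 and mcm3. The level of mcm6 was 119 and 155 rescaled CPM in larvae, against 1.66, 0.113 and 0.350 in blastula embryos.

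Genes of maternal RNA decay and translational control were more often lower than higher in larvae. Of 46 shared members, 24 were lower (52.2%, against 32% of all shared genes), 4 were higher and 18 had neither call, with a median of −1.43. Another 7 were in the blastula table only. Lower members numbered 20 under TMM, median ratios and ranks and 28 with deposited CPM. The CCR4-NOT deadenylase subunits cnot8, cnot7, cnot3b and cnot6 differed by −3.27, −3.11, −2.84 and −2.45, while the scaffold cnot1 and its partners cnot3a and cnot6l had neither call. Deadenylase gene cnot6 stood at 124 and 135 rescaled CPM in larvae, against 800, 621 and 718 in blastula embryos. The RNA-binding protein gene khsrp was at 261 and 288 rescaled CPM in larvae, against 1143, 1114 and 1060 in blastula embryos. The higher members were zfp36l1b, an AU-rich element binding protein gene, the poly(A)-binding protein gene pabpc1b, the antiproliferative gene btg1 and the RNA-binding gene igf2bp2a. The difference in igf2bp2a was 1.25 in the Ensembl tables and −1.58 in the RefSeq tables. Spliceosome genes were nearer to the middle, with 16 of 47 lower, 4 higher and 27 in neither call, and a median of −0.73. The lower share, 34.0%, was near the 32% of all shared genes, and the higher share was 8.51%, against 22.3%. The core Sm protein gene snrpd3 stood at 26.4 and 26.4 rescaled CPM in larvae, against 252, 226 and 216 in blastula embryos, whereas the hnRNP gene hnrnpa0a stood at 426 and 483 in larvae, against 21.3, 18.5 and 17.97 in blastula embryos. The other higher members were srsf5a, snrpf and hnrnpa0b, at 2.63, 2.16 and 1.27.

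Chromatin genes as a list were near the background of all shared genes. Of 41 shared members, 16 were lower in larvae (39.0%, against 32% of all shared genes), 12 were higher (29.3%, against 22.3%) and 13 had neither call. The median, −0.41, was that of all shared genes, and it became 0.03 under median-ratio scaling. Lower members included genes that copy chromatin states at replication. Maintenance DNA methyltransferase gene dnmt1 stood at 99.9 and 124 rescaled CPM in larvae, against 1243, 1956 and 1575 in blastula embryos. Its recruiter uhrf1, the histone chaperones nasp, chaf1a and chaf1b, and the Polycomb genes ezh2, suz12a and eed were also lower, by between −1.56 and −3.64. The higher members included the DNA methyltransferase gene dnmt3ab and the methylcytosine oxidase gene tet3. The level of dnmt3ab was 61.1 and 71.0 rescaled CPM in larvae, against 0.534, 3.22 and 0.408 in blastula embryos, and that of tet3 was 74.98 and 74.7 in larvae, against 0.830, 1.53 and 2.27 in blastula embryos. Among genes of architectural chromatin proteins, hmga1a had neither call, at 1808 and 1880 rescaled CPM in larvae, against 1225, 1196 and 1197 in blastula embryos. The higher ones were hmgb3a at 385 and 328 rescaled CPM in larvae, against 2.196, 0.509 and 1.05 in blastula embryos, and hmgn2 at 900 ± 66.1 in larvae (SD, n = 2) and 34.7 ± 5.199 in blastula embryos (SD, n = 3). The genes hmgb2a and hmgb2b had neither call.

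All 71 ribosomal protein genes in the tables were higher in larvae, under each of the 5 scalings. The differences ran between 2.35 and 7.11 on the log2 scale with a median of 4.75. Together these genes took 8.45% and 7.35% of the reads of the larval controls, against 0.554%, 0.499% and 0.447% in the blastula controls. The ribosomal stalk gene rplp0 stood at 4666 and 4209 rescaled CPM in larvae, against 61.0, 42.8 and 46.0 in blastula embryos. The small subunit gene rps2 was at 5487 and 4900 rescaled CPM in larvae, against 117, 89.95 and 97.6 in blastula embryos. The narrowest difference was in zgc:77702. The translation elongation factor eef1a1l1 was also higher, at 16620 and 16455 rescaled CPM in larvae, against 1724, 1768 and 1586 in blastula embryos. Ribosomal protein genes may share reads with any close copies, and the library kit selects polyadenylated RNA in its standard procedure. The part of poly(A) length in these levels was not tested.

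Energy metabolism genes were also almost all higher in larvae. Of 60 shared nuclear genes of oxidative phosphorylation, 58 were higher, 0 were lower, and sdhdb and cycsb had neither call, with a median of 3.49. A further 8 were in the larval table only, among them cox6a2 and cox7a1, heart and muscle forms in mammals. ATP synthase gene atp5a1 stood at 2724 and 3049 rescaled CPM in larvae, against 564, 403 and 425 in blastula embryos. The cytochrome oxidase gene cox8a showed the widest difference of the list, at 524 and 510 rescaled CPM in larvae, against 5.04, 3.66 and 4.31 in blastula embryos. Of 19 shared glycolysis genes, 17 were higher and 2 were lower, with a median of 3.30. Glyceraldehyde phosphate dehydrogenase gene gapdh stood at 2360 and 1934 rescaled CPM in larvae, against 226, 142 and 149 in blastula embryos. The lower members were the hexokinase hk2, at 24.3 and 38.3 rescaled CPM in larvae, against 134, 149 and 191 in blastula embryos, and the triose phosphate isomerase tpi1a, at 30.3 and 29.3 in larvae, against 87.2, 74.8 and 79.7 in blastula embryos. The second isomerase gene, tpi1b, was higher by 3.30, and tpi1a was in neither call under TMM, median-ratio and rank scaling.

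**Figure D3:**
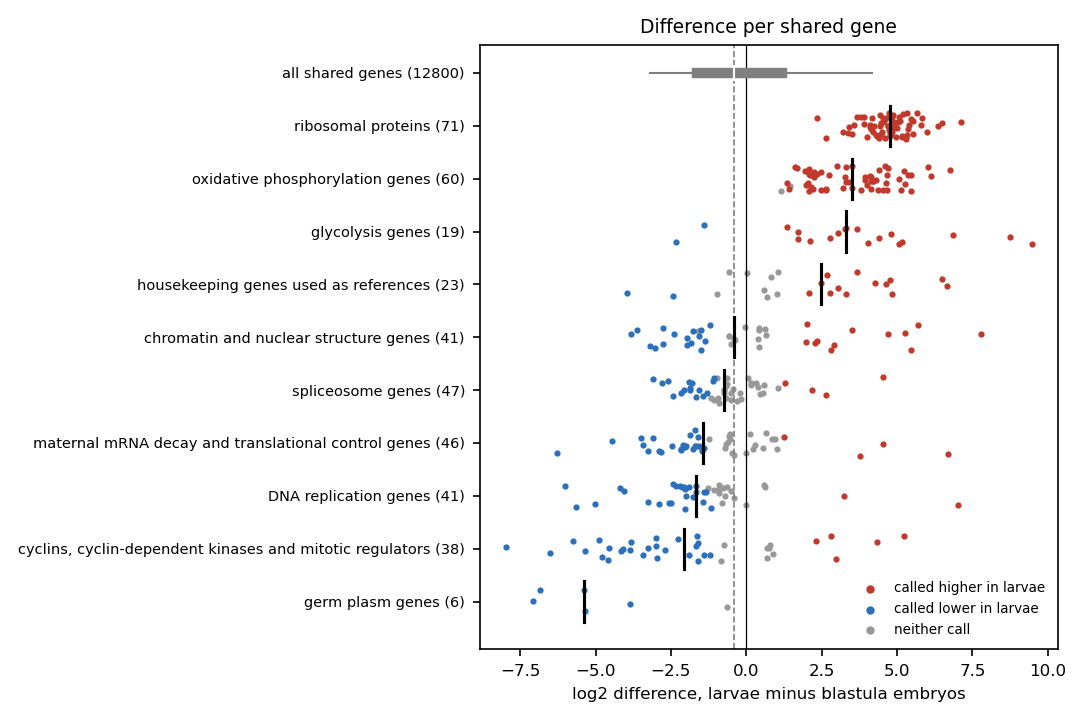
The plot of differences per list gives the log2 difference, larvae minus blastula embryos, for each shared member of 10 lists (points, coloured by call) with the list median as a black bar. The grey box spans the middle of all 12800 shared genes and the dashed line marks their median, −0.41. The lists are those of cellular machinery, the qPCR reference genes and germ plasm genes, and tissue lists are not drawn. Of these 10, ribosomal proteins have the highest median, 4.75, and germ plasm genes the lowest, −5.37.

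Genes of differentiated tissues were found almost entirely on the larval side. Over 16 lists of such genes, 623 distinct genes were in a table. Of these, 479 were in the larval table only, 101 shared genes were higher in larvae, 36 had neither call, and 2 were lower. The lower genes were blvrb, a biliverdin reductase gene, and the thymus factor foxn1. The call of blvrb was lost under TMM, median-ratio and rank scaling and in the BaP libraries, and that of foxn1 was kept in each of these. Another 5 were in the blastula table only: the mitochondrial iron importer slc25a37, the notochord factor flh, the T cell kinase lck, the hormone gene pth1a and a sodium channel gene listed as scn1a. The iron importer stood at 74.8, 87.3 and 84.3 deposited CPM. Over all genes, 6110 were in the larval table only, 12800 were shared and 1436 were in the blastula table only.

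Skeletal muscle took the largest share. All 64 sarcomere genes in a table were on the larval side, 49 of them in the larval table only. Together they held 14.4% of the reads in each larval control. The 15 shared members held 0.0684% to 0.0709% of the reads in the blastula controls. The blastula share lay mostly in tropomyosins that other cells use too, with tpm3 at 956 rescaled CPM in larvae and 432 in blastula embryos on average. Of 12 cardiac genes, 9 were in the larval table only, led by the ventricular myosin vmhc at 138 and 115 deposited CPM, and the shared troponin tnnt2a was higher, at 28.0 and 28.6 rescaled CPM in larvae, against 2.19, 1.92 and 1.28 in blastula embryos. The channel gene ryr2b and the limb and heart factor tbx5a had neither call, below 6 rescaled CPM on average at both ages.

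Eye genes were also found on the larval side. Of 31 lens genes, 29 were in the larval table only and cryba2a was higher, and the list held 1.25% and 1.12% of larval reads, against at most 0.000405% in a blastula control. Of 50 photoreceptor and retina genes, 45 were in the larval table only and 4 were higher, namely opn1sw2, irbp, pde6b and gc3. Rhodopsin, rho, the rod pigment, stood at 2420 and 2731 deposited CPM. The cone opsins opn1sw1, opn1lw2 and opn1mw1 averaged 1873 ± 122, 748 ± 11.7 and 583 ± 20.7 deposited CPM (SD, n = 2). The blue cone opsin opn1sw2 was listed at both ages, at 693 rescaled CPM in larvae and 1.59 in blastula embryos on average. Of 18 pigment cell genes, 14 were in the larval table only, led by gch2, which makes pteridine pigment precursors, at 139 and 167 deposited CPM, while dct and pmelb were higher and tyr and ltk had neither call. Under TMM and median ratios all 4 shared pigment genes were called higher. Crystallins and opsins are families of close copies whose reads may be shared.

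Blood, liver and gut genes followed. Of 20 globin and erythroid genes, 12 were in the larval table only. The globins were uneven between the larval controls, with hbae1 at 466 and 312 and hbbe2 at 461 and 242 deposited CPM, both highest in replicate 1. The erythrocyte membrane genes rhag and slc4a1a were higher by 7.40 and 6.30, whereas the haem synthesis genes fech, urod and hmbsa, which all cells use, had neither call. Of 51 liver and plasma carrier genes, 48 were in the larval table only and the other 3 were higher. The list held 1.44% to 1.60% of larval reads, and those 3 genes held at most 0.00507% of blastula reads. The apolipoproteins apoa2, apobl and apoa1a averaged 3273 ± 426, 2230 ± 257 and 2198 ± 322 deposited CPM, and transferrin, tfa, 654 ± 31.2 (SD, n = 2). Of 34 exocrine pancreas and gut genes, 29 were in the larval table only and shared members such as mep1a.2, anpepb and vil1l were higher. The digestive proteases ctrb1 and try stood at 237 and 301 and at 240 and 279 deposited CPM, and the hormones ins and gcga at 7.96 ± 0.14 and 11.6 ± 0.36.

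Skin and connective tissue made up a further block. Of 30 skin and keratin genes, 23 were in the larval table only, 6 were higher and grhl3, an epidermal transcription factor, had neither call. The keratins varied between the larval controls, with krt5 at 3499 and 2860 and cyt1l at 3213 and 1784 deposited CPM, both higher in replicate 1. Of 66 collagen and matrix genes, 40 were in the larval table only and 21 were higher. The list held 2.87% and 3.11% of larval reads, and its 26 shared members held 0.0579% to 0.0619% in blastula embryos. The cartilage collagen col2a1a averaged 3875 ± 103 deposited CPM, and the marker of maturing cartilage and bone col10a1 averaged 423 ± 1.28 (SD, n = 2). Of 20 bone, cartilage and notochord genes, 11 were in the larval table only, the shared genes epyc, mef2ca, col8a1a and runx3 were higher, and the notochord factor flh was in the blastula table only. The bone factors sp7 and runx2b, the cartilage factor sox9b and the phosphate regulator phex had neither call. The level of sp7 was 7.62 and 9.64 rescaled CPM in larvae, against 15.95, 8.31 and 4.25 in blastula embryos, and the groups overlapped. Transcripts of some matrix genes were also present in blastula embryos. The laminin gene lamc1 stood at 319 and 398 rescaled CPM in larvae, against 270, 233 and 256 in blastula embryos, and fibronectin fn1 at 255 and 264 in larvae, against 122, 188 and 168 in blastula embryos, neither with a call. The paralogue fn1b was higher, at 609 and 766 rescaled CPM in larvae, against 2.31, 2.15 and 4.02 in blastula embryos.

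Neural genes were on the larval side with few exceptions. Of 67 neuron and synapse genes, 50 were in the larval table only and 15 were higher. The presynaptic SNARE gene snap25a stood at 536 and 506 rescaled CPM in larvae, against 1.13, 1.02 and 1.98 in blastula embryos. The adhesion gene nlgn1 had neither call, at 4.41 and 4.87 rescaled CPM in larvae, against 10.32, 7.59 and 14.16 in blastula embryos. Of 29 glia and myelin genes, 20 were in the larval table only, 6 were higher and glula, glulb and plp1a had neither call. The glutamine synthetases glula and glulb, which many cells use, were abundant at both ages, with glulb at 399 and 448 rescaled CPM in larvae, against 585, 609 and 558 in blastula embryos. Of 47 vessel and leukocyte genes, 32 were in the larval table only and 8 were higher. In larvae the mast cell carboxypeptidase cpa5 stood at 126 and 152, the water channel aqp1a.1 at 113 and 113, the endothelial receptor kdrl at 39.2 and 39.0 and the neutrophil peroxidase mpx at 12.8 and 20.2 deposited CPM.

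Ion transport, kidney and hormone genes were also mostly on the larval side. Of 49, 35 were in the larval table only and 9 were higher. The sodium pump subunit gene atp1b1a stood at 667 and 761 rescaled CPM in larvae, against 1.84, 1.58 and 2.27 in blastula embryos. Of 48 hox genes, which pattern the body axis, 43 were in the larval table only. Of the 5 shared ones, hoxb2a, hoxd9a and hoxd12a were higher by 3.27, 1.75 and 1.83, and hoxa13b and hoxc11a had neither call. Under ranks and with deposited CPM 1 hox gene was called higher, and under TMM and median ratios 4 were. The gene hoxb3a, in the larval table only, stood at 66.6 and 66.9 deposited CPM.

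**Figure D4:**
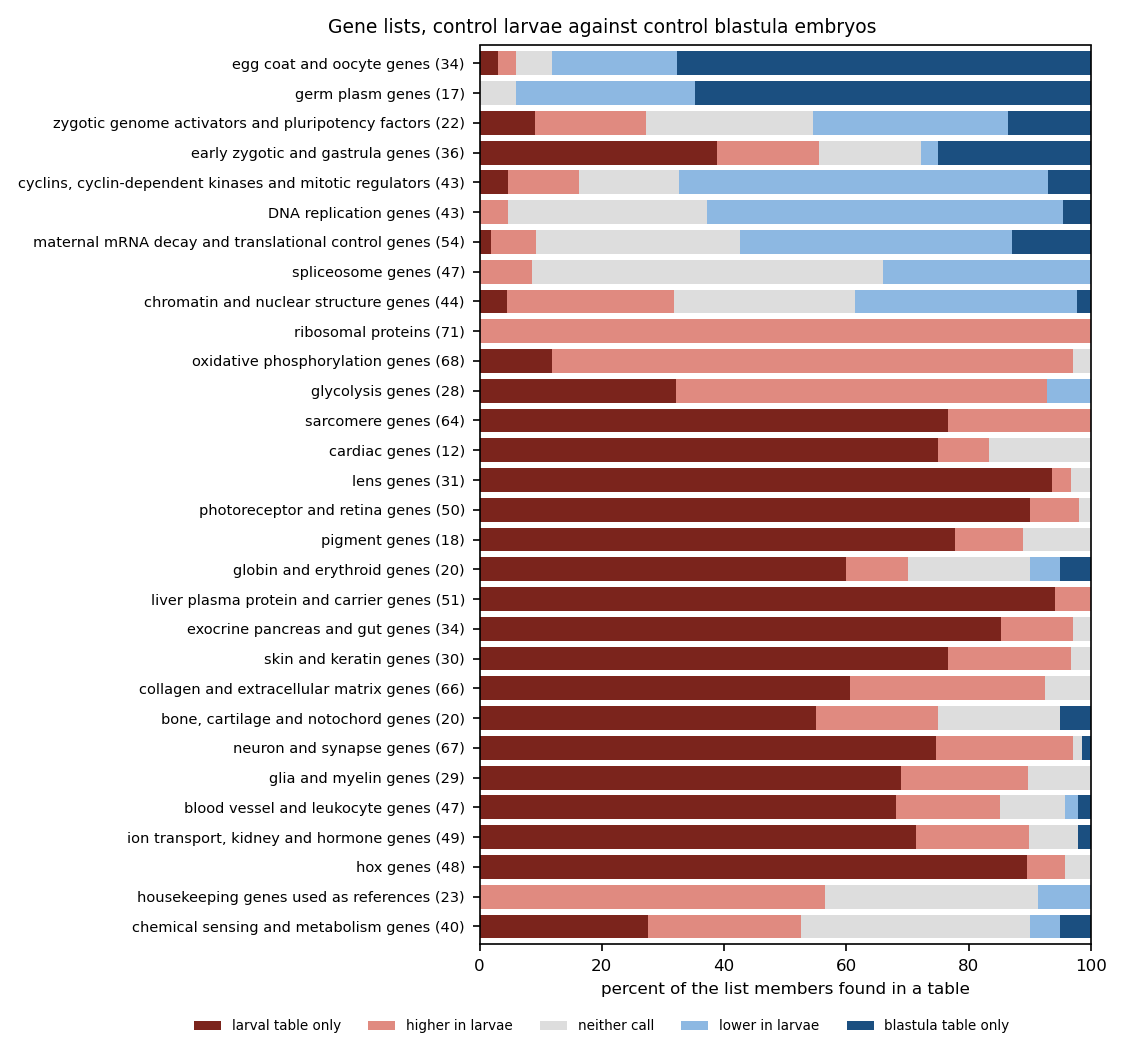
The chart of 30 gene lists divides the members found in a table (number in brackets) by the percent in the larval table only, higher in larvae, in neither call, lower in larvae and in the blastula table only. Oocyte and germ plasm lists are mostly blue, and tissue lists mostly dark red, with 49 of 64 sarcomere genes in the larval table only.

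Genes commonly used as references for quantitative PCR were not level between the ages. Of 23 such genes, 13 were higher in larvae, 2 were lower and 8 had neither call, with a median of 2.48. The cytoplasmic actin actb2 stood at 10598 and 9554 rescaled CPM in larvae, against 1602, 1332 and 1441 in blastula embryos, and actb1 at 5815 and 5743 in larvae, against 409, 227 and 283 in blastula embryos. The lower members were tbp, the TATA-binding protein gene, at 33.5 and 30.8 rescaled CPM in larvae, against 503, 527 and 504 in blastula embryos, and hprt1l, by −2.44. The gene with the smallest difference was hmbsa, at 27.8 and 30.4 rescaled CPM in larvae, against 28.4, 25.2 and 31.7 in blastula embryos, where the groups overlapped.

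Genes of chemical sensing and metabolism, which include the pathway that BaP engages through the aryl hydrocarbon receptor, differed in part between control animals of the 2 ages. Of 27 shared members, 15 had neither call, as had 45.7% of all shared genes. In larvae 10 were higher (37.0%, against 22.3% of all shared genes) and 2 were lower (7.41%, against 32%), with a median of 0.92. Of 40 members in a table, 11 were in the larval table only, as were 6110 of all genes, beside 12800 shared ones. The receptor gene ahr2 stood at 118 and 125 rescaled CPM in larvae, against 43.2, 29.0 and 41.4 in blastula embryos. Its target cyp1a, a cytochrome P450 gene, was at 25.1 and 25.8 rescaled CPM in larvae, against 1.84, 1.75 and 0.874 in blastula embryos. The oxidative stress regulator nfe2l2a was at 136 and 135 rescaled CPM in larvae, against 0.949, 2.26 and 4.55 in blastula embryos. The groups were apart in all of these genes. The glutathione synthesis gene gclm was lower, at 19.9 and 18.7 rescaled CPM in larvae, against 138, 148 and 151 in blastula embryos, as was the clock gene arntl1a, by −2.70. The receptor genes ahr1a and ahr1b and the P450 genes cyp1b1, cyp1c1 and cyp1c2 were in the larval table only. The receptor repressor ahrrb and the nuclear receptor gene listed as pparab were in the blastula table only.

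Pairs of related genes with an egg or early form and a later form were also compared. Of 26 pairs listed, 6 had a form in neither table. In 5 pairs the early form was lower in larvae or in the blastula table only while the later form was higher or in the larval table only. The oocyte linker histone h1m was in the blastula table only and h1f0, the linker histone of differentiated cells, was in the larval table only, at 595 and 359 deposited CPM. The SoxB1 gene sox19b was lower in larvae and its relative sox2 was in the larval table only, at 57.7 and 62.4 deposited CPM. The cap-binding factor eif4e1b, which keeps maternal RNA translationally silent in frog oocytes, was in the blastula table only at 59.0, 53.0 and 49.2 deposited CPM. Its general relative eif4ea was at 34.8 and 36.0 rescaled CPM in larvae, against 8.48, 11.4 and 11.3 in blastula embryos. The maternal helicase subunits mcm3l and mcm6l were in the blastula table only, at 188, 191 and 156 and at 188, 211 and 310 deposited CPM, and mcm3 and mcm6 were higher in larvae. The close similarity of these copies means that reads could have been divided between them.

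In other pairs the forms went the same way or a single form carried a call. Both forms were lower in larvae or in the blastula table only for the cyclins ccna1 and ccna2, the histone stem-loop binding genes zgc:158856 and slbp, and the deadenylation cofactors btg4 and btg2. The early form alone was on the blastula side, with the later form in neither call, for pabpn1l and pabpn1, pabpc1l and pabpc1a, wee2 and wee1, and cth1 and zfp36l1a. The poly(A)-binding protein gene pabpc1a stood at 1791 and 1849 rescaled CPM in larvae, against 918, 998 and 904 in blastula embryos. The early form had neither call and the later form was higher for the lamins lmnb2 and lmna and the cofilins cfl1 and cfl2. The muscle cofilin cfl2 stood at 310 and 307 rescaled CPM in larvae, against 1.36, 0.226 and 1.46 in blastula embryos. Both forms were on the larval side for the actins actb2 and acta1b, the enolases, creatine kinases, phosphoglycerate mutases and lactate dehydrogenases. Within the enolases eno1a stood at 1252 and 1139 rescaled CPM in larvae, against 9.49, 9.11 and 10.8 in blastula embryos, and eno3 at 1300 and 1203 in larvae, against 95.2, 62.2 and 74.6 in blastula embryos. The form listed as early, eno1a, had the wider log2 difference, 6.86 against 4.03, so these values did not bear out its label.

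**Figure D5:**
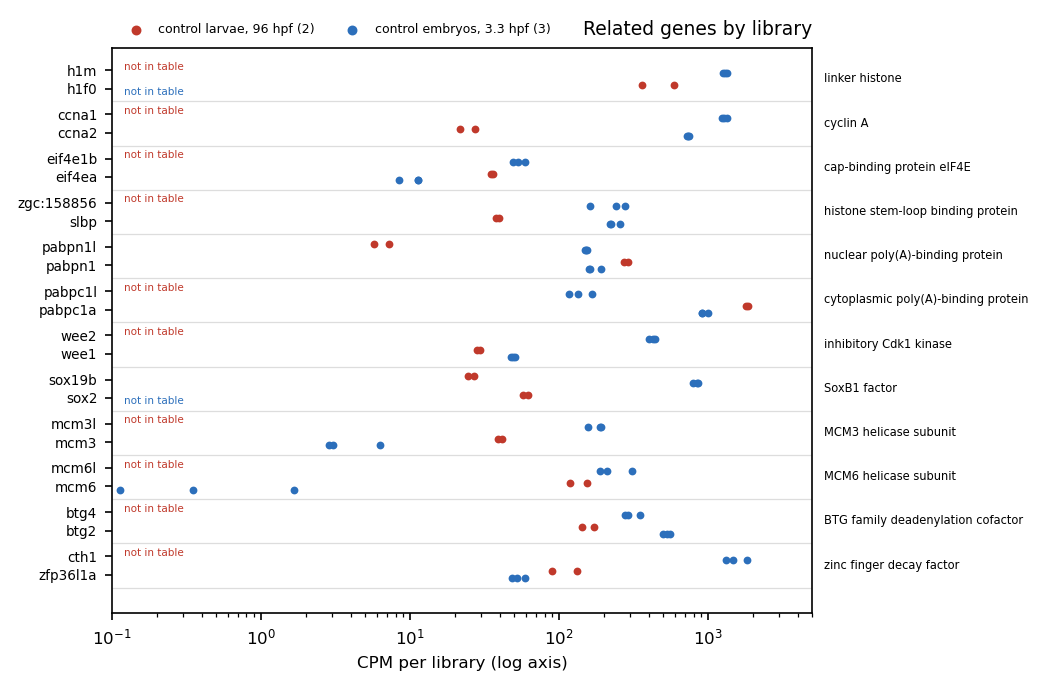
The plot of 12 pairs of related genes gives the level of each gene in each library (horizontal axis, CPM, log scale), rescaled CPM for shared genes and deposited CPM for genes in a single table, with larvae in red and blastula embryos in blue. Early forms such as h1m (1254 to 1331) have no larval point, and mcm6 is at 119 and 155 in larvae against 1.66 or less in blastula embryos.

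The libraries of BaP-exposed animals, which the choice of members did not use, gave the same comparison in other samples of the series. With them, 2676 genes were higher in larvae and 4130 were lower. Of the control calls, 83.0% of the higher genes and 90.6% of the lower genes were called the same way in the exposed libraries. These shared genes made up 88.7% and 89.8% of the calls in exposed libraries, and 0 genes had opposite calls. Both comparisons come from the same pair of tables, so the difference in scaling between the tables and the choice of listed genes are common to them. Of 131 shared genes chosen by the naming rule, 12 lost their call in the exposed libraries: sox11a, mych, cdkn1a, ccnd1, cdkn1c, mcm3, hnrnpa0b, srsf5a, tpi1a, blvrb, eif4ea and lmna.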

How the data were processed

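Pooled whole zebrafish were sequenced at 3.3 and 96 hpf, from TruSeq libraries per the labels' protocols and on a HiSeq2000 instrument per the series' own text. No role or version is given for the tools listed in the submitters' processing notes, which are edgeR, Partek and TopHat, or for the listed build, Zv9. The tables use Ensembl release 70 or RefSeq genes, per the file headers. Values were deposited as CPM, with the genes of a column summing to the same total in each library, which was read from the values. Low genes had been removed before deposit. The CPM of 1 read, taken from the steps of low values, gave the depth. Within 0.05 reads, between 37.8% and 64.6% of values per library were whole reads, so no count test was run. How the authors divided reads between features is not given in the sources used here.

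Control columns of the Ensembl gene tables were joined on the gene ID. Shared genes were rescaled to 1000000 per library, with factors of 1.57 and 1.55 for larvae and 1.04 for each blastula control, and compared as log2(rescaled CPM + 0.5). The call rule is that every library of an age lies at least 2-fold from every library of the other age. The planned design had no test of significance. The calls were checked on simulated data, with planted changes wider than 2-fold and none in low genes. That simulation had no batch and no separate scaling of the ages, so it cannot speak to either.

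The members and lists were chosen with earlier results of these data known. Of 1347 list symbols, 1091 were found under their own symbol and 72 through a name in a current RefSeq gene table, from which no coordinates were used. The keratin gene cyt1 was removed from the oxidative phosphorylation list as a listing error. Named genes are the 12 highest and 12 lowest called genes of at least 50 rescaled CPM, the 12 most abundant genes of a single table, the 4 most abundant members of a list and those called against its median, every pair and the 6 genes nearest the median. Other list members, such as cdk1, klf4 and sp7, were named after their values were seen. TMM and median-ratio factors were computed anew. Alternatives were these scalings, ranks, deposited CPM, pseudocounts of 0.1 and 2, a mean of at least 5 CPM, gaps of any size or 4-fold, RefSeq gene tables, BaP libraries and each library left out. Some genes that the rule names are not reported here. Transcript tables were not used, and 0 columns were left unmapped. Calculations used Python 3.11.15, pandas 2.3.3, NumPy 2.4.6 and SciPy 1.17.1.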

Additional observations from a re-analysis of the deposited data

How the results depend on the processing

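The counts of calls stayed within 1.5 times of 2860 higher and 4092 lower genes under every other scaling, pseudocount, filter and table tried. With the rule that groups need only not overlap, 4643 genes were higher and 6535 lower. With a 4-fold gap, 1696 were higher and 1863 lower. Leaving out each library in turn gave 2963 to 3070 higher and 4162 to 4516 lower genes, and since fewer libraries then have to differ, no call can be lost. The RefSeq tables shared 9103 genes, of which 1999 were higher and 3169 lower. They listed 3312 genes at 96 hpf only and 445 at 3.3 hpf only. The median Spearman's rho between ages was 0.413 in the RefSeq tables and 0.418 in the BaP libraries, against 0.432. The difference in igf2bp2a was −1.58 in the RefSeq tables, and the cause was not tested. The TMM and median-ratio scalings each took the call of tpi1a and blvrb. Ranks took those and hnrnpa0b and actb2. Deposited CPM took mych, igf2bp2a, hnrnpa0b, eif4ea and pgam1a. Lower spliceosome genes numbered 27 with deposited CPM and 12 under TMM, against 16. Of 131 named shared genes, 18 lost their call with a 4-fold gap and 12 in the BaP libraries, against 0 with either pseudocount. List medians changed sign for zygotic activators (−0.57, against 1.47 in the RefSeq tables and 0.21 without blastula replicate 1), chromatin genes (−0.41, against 0.03 under median ratios), cardiac genes (−0.41, against 3.67 at a mean of at least 5 CPM, 1.54 in the RefSeq tables and 0.22 in the BaP libraries) and erythroid genes (0.03, against −0.54 with deposited CPM, −0.10 in the RefSeq tables, −0.93 in the BaP libraries, −0.03 without larval replicate 2 and −0.05 without blastula replicate 2). The cardiac list had only 3 shared genes, and its value of 3.67 was that of tnnt2a alone, so there the set of genes changed. Medians in the RefSeq tables cover only the members found there under the same symbol, which can be fewer. No paired analysis was possible because no label ties a larval library to a blastula library, and no test was run between tables that were scaled separately.

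Larval controls number 2 and blastula controls 3, so spreads are coarse, and no setting separates age from batch or from the scaling of the tables.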

Other observations

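Gene families collected by the start of their symbols, after the values of other lists had been seen, extended the picture to other machinery. Mediator subunits, which link transcription factors to RNA polymerase II, had 14 of 26 shared members lower in larvae and 0 higher, with a median of −1.21 that stayed below 0 under each of 5 scalings. The subunit gene med14 averaged 65.9 ± 4.54 rescaled CPM in larvae (SD, n = 2) and 438 ± 28.4 in blastula embryos (SD, n = 3). Nuclear pore genes had 7 of 15 lower (4 to 10 across the scalings) and 0 higher, led by nup35 at 22.3 ± 2.33 rescaled CPM in larvae and 271 ± 18.6 in blastula embryos. Kinesins, the microtubule motors, had 11 of 19 lower and 1 higher. The lower ones included the cytokinesis motor kif23 and the chromosome-aligning kif18a, at −4.55 and −4.06, whereas 6 kinesins were in the larval table only, among them kif1ab, kif5aa and kif5c, relatives of neuronal cargo motors. These shares compare with 32% lower and 22.3% higher among all shared genes. The share lower among all shared genes was 24.0% under median ratios and 28.4% under ranks. Under both scalings 4 of 15 nuclear pore genes were lower, near those shares. Kinesins had 9 lower and 3 higher members under TMM and median ratios.

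Families of protein synthesis, folding and turnover differed among themselves. They are read against all shared genes, of which 22.3% were higher, 32% were lower and 45.7% had neither call. All 8 subunits of the chaperonin CCT, which folds actin and tubulin, were above the blastula level, 6 of them called higher, with 5 to 8 called higher across the scalings and cct4 at 648 ± 16.9 rescaled CPM in larvae (SD, n = 2) and 34.0 ± 5.51 in blastula embryos (SD, n = 3). Genes with proteasome symbols had 21 of 47 higher and 3 lower. The lower ones were the regulator subunit psmd11a, the nuclear activator psme3 and psmc3ip, whose product is a recombination factor rather than a subunit. Mitochondrial ribosomal proteins had 16 of 50 higher, 0 lower and 34 in neither call, and 9 higher and 2 lower with deposited CPM. Aminoacyl-tRNA synthetases had 4 of 28 higher, 4 lower and 20 in neither call, with a median of 0.33 that became −0.26 with deposited CPM. Ubiquitin conjugating enzymes had 4 of 30 higher and 5 lower, with a median of −0.20 that became 0.19 under TMM, 0.24 under median ratios and 0.37 under ranks. With the shared-gene total, calls of either direction were rarer in the synthetases and in these enzymes than among all shared genes. Translation initiation genes had 23 of 57 higher and 12 lower, with a median of 0.49 that became −0.10 with deposited CPM.

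Adhesion genes had members on both sides, more of them on the larval side. Of 12 shared cadherins and protocadherins, 9 were higher, 1 was lower and 2 had neither call, beside 22.3% higher and 32% lower among all shared genes. The lower one was epithelial cadherin, cdh1, at 151 and 154 rescaled CPM in larvae, against 678, 750 and 722 in blastula embryos. Neural cadherin, cdh2, stood at 413 and 418 rescaled CPM in larvae, against 16.9, 5.49 and 19.7 in blastula embryos. Of 46 cadherins and protocadherins in a table, 33 were in the larval table only and 1 was in the blastula table only. For this and the families that follow, the counts over all genes were 6110 in the larval table only, 12800 shared and 1436 in the blastula table only. Of 26 claudins, 15 were in the larval table only, and cldne, cldn5b, cldn11b, cldn15b and cldn2 were higher, while cldnd, cldng and cldn17 were in the blastula table only and cldn7b, cldnj and cldn12 were lower. Lower claudins numbered 2 under TMM, median ratios and ranks. Of 24 genes with integrin symbols, 10 were in the larval table only, 6 shared ones were higher, led by itga6b at 5.38, and 6 had neither call. The lower ones were the subunit genes itga5 and itgb5, at −1.87 and −2.71. Of 163 shared solute carriers, 53 were higher, 51 were lower and 59 had neither call, with a median of −0.12. Of all shared genes 22.3% were higher and 32% were lower. Another 109 solute carriers were in the larval table only and 9 in the blastula table only. The widest higher difference was 9.49, in slc1a2b. The monocarboxylate transporter slc16a3 had, after slc35f2, the widest lower difference of the shared solute carriers, at 56.9 ± 0.86 rescaled CPM in larvae (SD, n = 2) and 1277 ± 138 in blastula embryos (SD, n = 3).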
